A study of Danio rerio with 13 samples.

Results

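Genes that carry or read the signal of the insulin receptor and of phosphoinositide 3-kinase (PI3K) were followed through 13 arrays of zebrafish acute lymphoblastic leukemia (ALL). They are the adaptor *irs2a*, the class I regulatory subunit *pik3r3b*, the class II kinase *pik3c2b*, the class III kinase *pik3c3*, the protein kinase *pdpk1a* and the transcription factor *foxo3b*. A probe set was taken for a gene when that gene was its only symbol, which gave 8 probe sets out of 15502 and 6 genes out of the 8793 that were named. Each gene was read from its probe set with the highest mean over the 13 arrays, and all 6 genes were measured.

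The arrays fell into 3 groups. The 6 hMYC-2 and 4 hMYC-1 arrays came from adult fish of the double-transgenic line *rag2:hMYC;lck:eGFP*, in which a zebrafish *rag2* promoter, active in immature lymphocytes, drives human *MYC* (no tamoxifen was given), and a zebrafish *lck* promoter drives eGFP. The study concludes that *hMYC* fish develop precursor-B cell ALL, T cell ALL (T-ALL) or both. The 3 hlk arrays came from adult fish of *hlk*, a zebrafish T-ALL model, which carries the same *lck:eGFP* reporter and whose label names no *hMYC* transgene. In every group GFP+ leukemia cells were sorted from the fish body without the head, dim and bright cells together, so a cell was taken only if its *lck* promoter drove enough eGFP. By the study's counts there was 1 fish per array. The split of the *hMYC* fish into hMYC-1 and hMYC-2 was itself drawn by clustering these arrays, so a test between those 2 groups describes the split and is not independent evidence for it. Both comparisons against hlk used the same 3 hlk arrays.

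In insulin and insulin-like growth factor signalling, the activated receptor phosphorylates adaptors of the IRS family, which dock the regulatory subunits of class I PI3K. The kinase then makes a lipid at the plasma membrane that brings PDK1 (*pdpk1a* encodes a zebrafish form) and AKT together. AKT phosphorylates FOXO factors, which keeps them out of the nucleus, and it activates the TOR kinase that drives protein synthesis. Class II and class III PI3K make other lipids, mainly on endosomes, and the class III enzyme is best known for endosome traffic and autophagy. In lymphocytes the class I branch carries signals from antigen and cytokine receptors, and FOXO factors control genes of B and T cell development.

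Values are log2 expression levels after RMA, a method that corrects background, scales arrays to 1 distribution and summarises the probes of a probe set. A level at or below 5.68, the highest of 17 control probe sets for tags foreign to the fish, was treated as background. Where every array of a group lay at or below it, a called difference is given as at least the value measured against 5.68. A gene was called when its limma p, adjusted by Benjamini-Hochberg over 15502 probe sets, was under 0.05, and differences carry limma's standard error (SE). Array medians lay between 4.97 and 5.09. The 11 B cell markers measured were *blnk*, *btk*, *cd74a*, *cd74b*, *cd81a*, *cxcr4a*, *igl1c1*, *pax5*, *spi1b*, *sptbn1* and *syk*. They averaged 9.93 to 10.20 on hMYC-2 arrays, 9.08 to 10.25 on hMYC-1 arrays and 5.47 to 5.54 on hlk arrays, where 8 of the 11 were within background. Against hlk, 11 of 11 were called higher in each *hMYC* group, beside 12.4% of all genes in hMYC-2 and 10.6% in hMYC-1. From these arrays the study had reported *pax5* and *btk* as higher than hlk in both *hMYC* groups, and *syk* and *blnk* in hMYC-2 only. Here *syk* and *blnk* were called in hMYC-1 too, by limma rather than the study's test. Between the *hMYC* groups 0 of the 11 were called. Since the study had drawn such genes from the same arrays, the count against hlk describes the groups and does not test them. The 5 T cell markers measured (*cd28*, *gata3*, *rag1*, *runx3* and *trac*) averaged 4.81 to 5.60 on hMYC-2 arrays, 5.09 to 7.02 on hMYC-1 arrays and 7.90 to 8.68 on hlk arrays. Of these, 4 of 5 were called lower in hMYC-2 (15.2% of all genes) and 3 of 5 in hMYC-1 (10.3%). Every difference against hlk below therefore came with this difference in lineage markers, whose part in it was not tested. Fewer cells of a type and less RNA per cell cannot be told apart in such bulk samples. On hlk replicate 1 the probes at the 3′ end of *gapdh* exceeded those at the 5′ end by 4.69, against 1.09 to 2.49 on the other arrays, and without that array 26 of the 72 pathway genes described here were called in hMYC-2 against hlk and 26 in hMYC-1 against hlk, against 23 and 21 with it.

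The 6 genes were chosen with earlier results of these data known, so the counts and ranges below describe them and do not test the pathway. All 6 genes were called in hMYC-1 against hlk, where 20.9% of all genes were, and 5 of 6 in hMYC-2 against hlk, where 27.6% were. In hMYC-1, *irs2a*, *pik3c2b* and *pdpk1a* were higher (background 10.6% of genes called higher) and *pik3c3*, *pik3r3b* and *foxo3b* lower (10.3% called lower). In hMYC-2 the same genes were higher (12.4%), and *pik3c3* and *pik3r3b* were lower (15.2%). The arrays of the 2 groups did not overlap for 6 of 6 genes in hMYC-1 against hlk, as for 24.9% of all genes, and for 4 of 6 in hMYC-2 against hlk, as for 25.3%. The range of a gene over the 13 arrays was 4.03 for *irs2a*, 3.84 for *pik3c2b*, 3.73 for *pik3c3*, 2.64 for *foxo3b*, 2.59 for *pik3r3b* and 1.21 for *pdpk1a*, against a median of 0.83 over all genes. That median and the shares of all genes take in genes within background, as array medians lay below 5.68. Neither was computed for genes above background alone. A shrinkage t test, which pulls each gene's variance toward that of all genes, called 4 of the 6 in hMYC-1 and 3 of the 6 in hMYC-2 against hlk. It left out *pdpk1a* in both groups, *foxo3b* in hMYC-1 and *pik3r3b* in hMYC-2 (local false discovery rates for *pdpk1a* of 0.864 in hMYC-2 and 0.506 in hMYC-1, for *foxo3b* of 0.642 and for *pik3r3b* of 0.763).

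**Figure D1:**
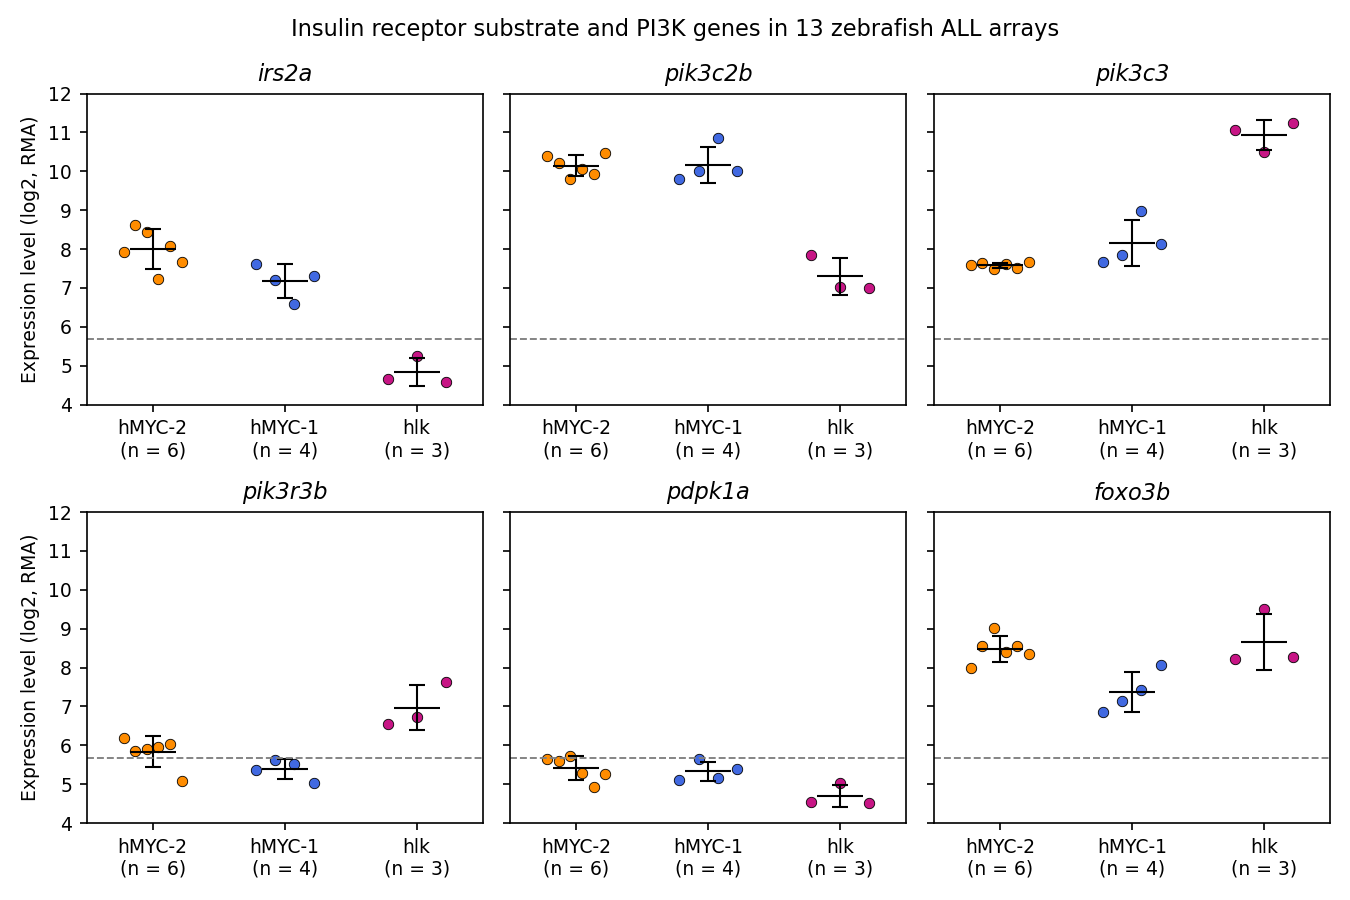
Log2 expression level of each of the 6 genes on each array, with hMYC-2, hMYC-1 and hlk from left to right. Points are arrays, horizontal bars are group means with SD, and the dashed line is the background level of 5.68. The hlk points lie below all *hMYC* points for *irs2a* and *pik3c2b* and above all of them for *pik3c3* and *pik3r3b*.

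The adaptor *irs2a* was above background in both *hMYC* groups and within background in hlk. Its levels were 7.93, 8.62, 8.45, 7.24, 8.09 and 7.66 on hMYC-2 arrays (mean 8.00 ± 0.51 SD, n = 6), 7.62, 7.20, 6.58 and 7.31 on hMYC-1 arrays (7.18 ± 0.44, n = 4) and 4.66, 5.26 and 4.59 on hlk arrays (4.84 ± 0.37, n = 3). Every *hMYC* array lay above background and no hlk array did. The level was at least 2.32 higher in hMYC-2 than in hlk, which is at least 4.99-fold (adjusted p = 7.26e-06), and at least 1.50 higher in hMYC-1 than in hlk, at least 2.82-fold (adjusted p = 0.000227). Leaving out each array in turn kept both calls.

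Of the 9 other adaptor and receptor genes measured, 1 was called higher and 1 lower in each comparison against hlk (22.2%, beside 27.6% of all genes in hMYC-2 and 20.9% in hMYC-1), with list medians of −0.04 in hMYC-2 against hlk and 0.01 in hMYC-1 against hlk, beside −0.08 and −0.03 over all genes. The adaptor *shc1*, which links receptors to the RAS pathway, was the higher one. It stood at 7.75 to 8.46 on hMYC-2 arrays, 8.03 to 8.59 on hMYC-1 arrays and 5.96 to 6.97 on hlk arrays, a difference of 1.79 in hMYC-2 (SE 0.21, adjusted p = 5.71e-05) and 1.92 in hMYC-1 (SE 0.23, adjusted p = 7.67e-05). The docking protein *gab1* was the lower one, within background on every *hMYC* array and above it on 2 of 3 hlk arrays. The adaptor *grb2b* missed the threshold, with differences of 1.01 in hMYC-2 (adjusted p = 0.0923) and 0.81 in hMYC-1 (adjusted p = 0.245). Without hlk replicate 1 they were 0.45 and 0.25 (adjusted p = 0.429 and 0.735), and without hMYC-2 replicate 5 *grb2b* was called in hMYC-2 (1.20, adjusted p = 0.0431). The insulin receptor gene *insra*, chosen after its values were seen, averaged 8.13 ± 0.21 in hMYC-2, 8.16 ± 0.16 in hMYC-1 and 8.16 ± 0.15 in hlk, and neither difference against hlk passed the threshold (adjusted p = 0.879 and 0.994). The other probe sets of *insra*, with group means of 3.55 to 3.68 and 3.83 to 3.91, were within background on all 13 arrays. The other insulin receptor gene *insrb* and the insulin-like growth factor receptor genes *igf1ra* and *igf1rb* were within background on all 13 arrays. Of these, *insrb* and *igf1rb* were also chosen after their values were seen.

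The class I regulatory subunit *pik3r3b*, a relative of the mammalian p55 gamma subunit that docks on IRS proteins, was lower in both *hMYC* groups than in hlk. It read 6.20, 5.86, 5.90, 5.97, 6.04 and 5.08 on hMYC-2 arrays (5.84 ± 0.39), 5.36, 5.62, 5.52 and 5.03 on hMYC-1 arrays (5.38 ± 0.26) and 6.54, 6.74 and 7.62 on hlk arrays (6.97 ± 0.57). All hlk arrays lay above all *hMYC* arrays, while 5 of 6 hMYC-2 arrays and 0 of 4 hMYC-1 arrays passed background. The level in hMYC-2 was lower than in hlk by a difference of −1.13 (SE 0.26, 2.18-fold, adjusted p = 0.00714), and without hlk replicate 3, the array with the highest level, by −0.80 (adjusted p = 0.0385). In hMYC-1 it was lower by at least 2.44-fold (adjusted p = 0.00154). The second probe set of the gene averaged 3.20 in hMYC-2, 3.13 in hMYC-1 and 3.15 in hlk and was within background on all arrays.

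Among the other class I genes, the paralog *pik3r3a* averaged 7.91 ± 0.50 in hMYC-2, 7.11 ± 0.41 in hMYC-1 and 7.75 ± 0.88 in hlk, and neither difference against hlk passed the threshold (0.16, adjusted p = 0.789 and −0.64, adjusted p = 0.311). The regulatory subunit *pik3r1* read differently by probe set. The probe set with the higher mean gave 10.59 ± 0.51 in hMYC-2, 9.15 ± 0.52 in hMYC-1 and 9.80 ± 0.55 in hlk and was called in no comparison (adjusted p = 0.108 in hMYC-2 and 0.259 in hMYC-1 against hlk, 0.0721 in hMYC-2 against hMYC-1). It was called in hMYC-2 against hMYC-1 without hMYC-2 replicate 4 (1.64, adjusted p = 0.0177) or hMYC-1 replicate 1 (1.65, adjusted p = 0.044), and in hMYC-2 against hlk without hMYC-2 replicate 4 (0.99, adjusted p = 0.0253). The other averaged 9.26 in hMYC-2, 7.12 in hMYC-1 and 8.93 in hlk, and was called lower in hMYC-1 than in hlk (−1.81, adjusted p = 0.00409) and higher in hMYC-2 against hMYC-1 (2.13, adjusted p = 0.00785). Both probe sets placed hMYC-2 above hlk and hMYC-1 below it. The inhibitor *pik3ip1*, a transmembrane protein that restrains class I PI3K in mammals, was called higher in both *hMYC* groups. Its levels were 7.33 to 9.23 on hMYC-2 arrays, 9.02 to 9.60 on hMYC-1 arrays and 7.15 to 8.05 on hlk arrays, a difference of 1.12 in hMYC-2 (SE 0.35, adjusted p = 0.0338, arrays overlapping) and 1.82 in hMYC-1 (SE 0.38, adjusted p = 0.00442). The call in hMYC-2 was lost without any 1 of hMYC-2 replicates 1 to 4 or hlk replicates 1 and 3 (adjusted p = 0.0551 to 0.116). The catalytic subunit *pik3cg*, which acts downstream of chemokine receptors, lay at 9.18 to 9.99 over all arrays and was not called (adjusted p = 0.205 in hMYC-2 and 0.987 in hMYC-1). These 4 genes were the class I genes measured beside *pik3r3b*.

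The class II kinase *pik3c2b* was high in both *hMYC* groups. It read 10.40, 10.21, 9.79, 10.07, 9.92 and 10.47 on hMYC-2 arrays (10.14 ± 0.27), 9.79, 10.01, 10.85 and 10.02 on hMYC-1 arrays (10.17 ± 0.47) and 7.85, 7.03 and 7.01 on hlk arrays (7.30 ± 0.48). A gap of 1.94 separated the lowest *hMYC* array from hlk replicate 1, the highest of the hlk arrays. The difference was 2.85 in hMYC-2 against hlk (SE 0.25, 7.19-fold, adjusted p = 3.82e-06) and 2.87 in hMYC-1 against hlk (SE 0.27, 7.31-fold, adjusted p = 9.13e-06). Without hlk replicate 1 the differences were 3.12 and 3.15.

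The paralog *pik3c2a*, a class II kinase with a role in clathrin traffic, was also called higher against hlk, by less. It read 7.41 to 7.80 on hMYC-2 arrays, 8.33, 7.66, 6.72 and 7.01 on hMYC-1 arrays and 6.35, 6.25 and 6.44 on hlk arrays. The difference was 1.26 in hMYC-2 (SE 0.26, adjusted p = 0.0037) and 1.08 in hMYC-1 (SE 0.29, adjusted p = 0.018), and the hlk arrays lay below all *hMYC* arrays. The call in hMYC-1 was lost without hlk replicate 2 (1.04, adjusted p = 0.054) and with the replicate number as a block (1.18, adjusted p = 0.0505). The second probe set of *pik3c2a* was within background on all arrays.

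The class III kinase *pik3c3*, the zebrafish Vps34, was high in hlk and lower in both *hMYC* groups. It read 7.59, 7.63, 7.50, 7.61, 7.52 and 7.66 on hMYC-2 arrays (7.58 ± 0.06), 7.66, 7.85, 8.98 and 8.12 on hMYC-1 arrays (8.15 ± 0.58) and 11.05, 10.50 and 11.23 on hlk arrays (10.93 ± 0.38). The hMYC-2 arrays spanned a narrow band, the hMYC-1 arrays spread upward from it, and the hlk arrays lay apart from both. The difference was −3.34 in hMYC-2 against hlk (SE 0.24, 10.1-fold lower, adjusted p = 5.89e-07) and −2.77 in hMYC-1 against hlk (SE 0.26, 6.84-fold lower, adjusted p = 8.03e-06). Without hMYC-1 replicate 3 the difference in hMYC-1 was −3.05.

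The order of the hMYC-1 arrays in *pik3c3* was that of their T cell marker levels, 5.09, 5.57, 7.02 and 6.14 on replicates 1 to 4, beside B cell marker levels of 10.25, 10.02, 9.08 and 9.52. Replicate 3 thus had the highest T cell and lowest B cell marker level among the *hMYC* arrays together with the highest *pik3c3*, the highest *pik3c2b* and the lowest *irs2a* among them. The 6 macrophage markers averaged 6.10 on replicate 3 and 6.62 on replicate 4, against 5.37 to 5.98 on the other arrays of the series, and replicate 3 had a *gapdh* 3′ to 5′ difference of 2.49. The hlk arrays, with T cell marker levels of 7.96, 7.90 and 8.68, lay above all *hMYC* arrays in *pik3c3* and below them in *pik3c2b* and *irs2a*. For *pik3c2b*, hMYC-1 replicate 3 and the hlk arrays thus lay at opposite ends. The match of order in *pik3c3* did not extend to hMYC-2. There replicate 5 had a T cell marker level of 5.60, above hMYC-1 replicates 1 and 2, but a *pik3c3* level of 7.52, below both. The part of these markers and of RNA quality in the 3 genes was not tested.

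Of 8 other genes of the class II and III kinases and their partners, *pik3c2a* was called higher and *rab5c* lower in each comparison against hlk (25%, beside 27.6% of all genes in hMYC-2 and 20.9% in hMYC-1), with list medians of −0.07 in hMYC-2 and −0.20 in hMYC-1. The early endosome GTPase *rab5c* read 8.24 to 8.41 on hMYC-2 arrays, 8.26 to 8.53 on hMYC-1 arrays and 9.27 to 9.51 on hlk arrays, a difference against hlk of −1.08 in hMYC-2 (SE 0.08, adjusted p = 8.71e-07) and −1.03 in hMYC-1 (SE 0.09, adjusted p = 3.56e-06). Its relative *rab5ab* averaged 9.07 in hMYC-2, 8.69 in hMYC-1 and 8.26 in hlk and was not called (adjusted p = 0.0747 and 0.433), except in hMYC-2 without hMYC-2 replicate 1 (0.96, adjusted p = 0.0309) or hMYC-1 replicate 1 (0.81, adjusted p = 0.0484). The regulatory partner of Vps34, *pik3r4*, also chosen after its values were seen, read 5.88 to 6.23 on hMYC-2 arrays, 5.63 to 6.26 on hMYC-1 arrays and 5.76 to 6.71 on hlk arrays, with differences of −0.08 (adjusted p = 0.788) and −0.24 (adjusted p = 0.482).

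**Figure D2:**
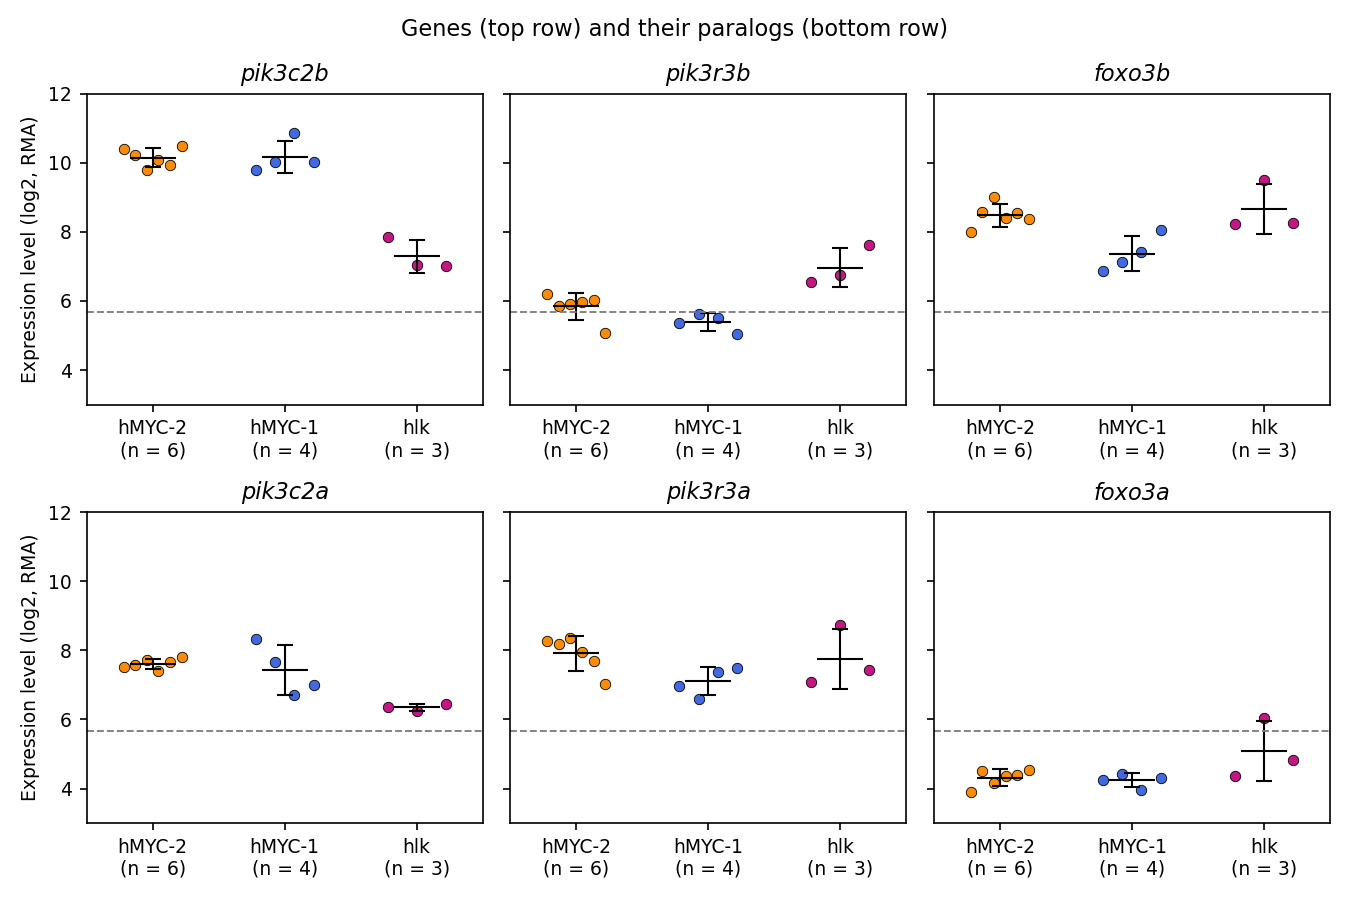
Log2 expression level on each array of *pik3c2b*, *pik3r3b* and *foxo3b* (top row) and of their paralogs *pik3c2a*, *pik3r3a* and *foxo3a* (bottom row), with hMYC-2, hMYC-1 and hlk from left to right. Bars are group means with SD and the dashed line is the background level of 5.68. The hlk arrays lie below all *hMYC* arrays for both class II kinases, overlap them for *pik3r3a*, and *foxo3a* passes background on 1 array.

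The kinase *pdpk1a*, the zebrafish relative of PDK1 that activates AKT and other AGC kinases, was near background throughout. It read 5.66, 5.61, 5.73, 5.30, 4.93 and 5.26 on hMYC-2 arrays (5.42 ± 0.31), 5.10, 5.65, 5.17 and 5.40 on hMYC-1 arrays (5.33 ± 0.25) and 4.54, 5.03 and 4.52 on hlk arrays (4.70 ± 0.29). A single hMYC-2 array passed background and the hMYC-2 and hlk arrays overlapped. The differences of 0.72 in hMYC-2 (SE 0.19, adjusted p = 0.0145) and 0.63 in hMYC-1 (SE 0.20, adjusted p = 0.0482) passed the threshold but carry no fold at these levels. Without hlk replicate 1 neither call remained (0.64, adjusted p = 0.0571 and 0.56, adjusted p = 0.132), and the call in hMYC-1 was lost in 9 of 13 fits that left out 1 array.

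Downstream of PDK1, *sgk1* was the 1 gene of the 72 in the pathway lists whose probe set of highest mean was called between the *hMYC* groups, where the other probe set of *pik3r1* was called too. It encodes a kinase of the AKT family branch that PDK1 activates. Its levels were 8.46, 9.03, 9.13, 7.84, 8.37 and 9.26 on hMYC-2 arrays, 6.28, 4.55, 4.36 and 6.56 on hMYC-1 arrays and 4.88, 5.23 and 4.16 on hlk arrays. No hMYC-2 array came down to any array of the other groups, 2 of 4 hMYC-1 arrays passed background and no hlk array did. The level was at least 8.01-fold higher in hMYC-2 than in hlk (adjusted p = 8.73e-05) and exceeded that in hMYC-1 by 3.24 (SE 0.45, adjusted p = 0.00566), a call that was lost with the replicate number as a block (3.18, adjusted p = 0.118), while the difference of 0.68 in hMYC-1 against hlk was not called (adjusted p = 0.439).

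Of the 8 PDK1, AKT and AGC kinase genes measured, 1 was called higher and 3 lower in each comparison against hlk (50%). Of all genes, 27.6% were called in hMYC-2 and 20.9% in hMYC-1. The list medians were 0.13 in hMYC-2 and 0.17 in hMYC-1, beside −0.08 and −0.03 over all genes. The higher gene was *sgk1* in hMYC-2 and, chosen after its values were seen, the protein kinase C gene *prkcda* in hMYC-1 (0.68, adjusted p = 0.0222), a call lost without any 1 of hMYC-1 replicates 1 and 3 or hlk replicates 2 and 3 (adjusted p = 0.0511 to 0.0944). The ribosomal S6 kinase *rps6ka1*, which ERK and PDK1 activate, read 6.51 to 6.98 on hMYC-2 arrays, 6.76 to 7.16 on hMYC-1 arrays and 8.26 to 8.48 on hlk arrays. Its difference against hlk was −1.62 in hMYC-2 (SE 0.12, adjusted p = 8.69e-07) and −1.41 in hMYC-1 (SE 0.13, adjusted p = 7.98e-06). The protein kinase C gene *prkcbb* was lower by a difference of −1.54 in hMYC-2 (SE 0.16, adjusted p = 1.33e-05) and −1.36 in hMYC-1 (SE 0.17, adjusted p = 1e-04). The third lower gene, *akt2l*, was within background on every *hMYC* array and at least 0.02 lower there than in hlk (adjusted p = 0.00387 in hMYC-2 and 0.021 in hMYC-1). The calls were lost with the replicate number as a block (adjusted p = 0.0758 and 0.104) and when arrays were set to the housekeeping genes *actb1*, *eef1a1l1* and *gapdh* (adjusted p = 0.289 and 0.598), and the call in hMYC-1 was lost without any 1 of hMYC-1 replicates 2 and 4 or hlk replicates 2 and 3 (adjusted p = 0.0523 to 0.08).

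The transcription factor *foxo3b*, which AKT restrains and which in mammals drives genes of cell arrest, apoptosis and lymphocyte homing, was called lower in hMYC-1 than in hlk and was not called in hMYC-2, although the difference between those *hMYC* groups did not pass the threshold either (adjusted p = 0.144). It read 7.98, 8.56, 9.01, 8.41, 8.55 and 8.36 on hMYC-2 arrays (8.48 ± 0.34), 6.86, 7.14, 7.42 and 8.06 on hMYC-1 arrays (7.37 ± 0.51) and 8.22, 9.50 and 8.26 on hlk arrays (8.66 ± 0.73). The hMYC-1 arrays lay below all hlk arrays, by a gap of 0.16, and the hMYC-2 arrays overlapped hlk. The difference was −0.18 in hMYC-2 against hlk (SE 0.32, adjusted p = 0.715), with a 95% interval of −0.87 to 0.50. In hMYC-1 against hlk it was −1.29 (SE 0.34, 2.45-fold lower, adjusted p = 0.0184). That call was lost without hlk replicate 2 (−0.87, adjusted p = 0.0729), without hMYC-1 replicate 1 (adjusted p = 0.0516), with hMYC-1 and hlk fitted alone (adjusted p = 0.0831) and with housekeeping genes as the scale (−1.08, adjusted p = 0.0704). Its second probe set was within background on all arrays (means 5.48 in hMYC-2, 5.50 in hMYC-1 and 5.44 in hlk). The paralog *foxo3a*, the only other FOXO gene measured, was within background on 12 of 13 arrays, the exception being hlk replicate 2 at 6.04.

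Of 19 genes that FOXO factors control in mammals, 4 were called higher and 1 lower in hMYC-2 against hlk (26.3%, beside 27.6% of all genes), and 3 were called higher in hMYC-1 against hlk (15.8%, beside 20.9%), with medians of 0.00 and −0.08. These genes were taken from work in mammals, and their control by *foxo3b* was not measured here. The homing regulator *klf2a* read 9.78 to 10.71 on hMYC-2 arrays, 9.32 to 10.10 on hMYC-1 arrays and 4.70, 5.17 and 8.61 on hlk arrays. It was higher by 4.06 in hMYC-2 (SE 0.64, adjusted p = 0.00049) and by 3.55 in hMYC-1 (SE 0.69, adjusted p = 0.00278), and hlk replicate 3 stood apart from the other hlk arrays. Its paralog *klf2b* was within background on all hlk arrays and at least 2.92-fold higher in hMYC-2 (adjusted p = 0.000335) and at least 2.25-fold higher in hMYC-1 (adjusted p = 0.00251). The remaining higher gene in hMYC-1, also higher in hMYC-2, was the apoptosis gene *bbc3*, chosen after its values were seen (1.51 in hMYC-2, adjusted p = 0.0269, and 1.70 in hMYC-1, adjusted p = 0.0277). Both of its calls were lost without hlk replicate 3 (1.12, adjusted p = 0.122 and 1.31, adjusted p = 0.115), the call in hMYC-2 also without hMYC-2 replicate 2 or 4 (adjusted p = 0.0502 and 0.0514), and that in hMYC-1 without hMYC-1 replicate 1, 3 or 4 (adjusted p = 0.0527 to 0.0688).

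The stress gene *gadd45aa* averaged 7.77 ± 0.64 in hMYC-2, 6.46 ± 0.97 in hMYC-1 and 5.86 ± 0.20 in hlk, and was called in hMYC-2 against hlk (1.91, SE 0.45, adjusted p = 0.00767) but not in hMYC-1 against hlk (0.60, adjusted p = 0.454) or between the *hMYC* groups (1.31, adjusted p = 0.24). The gene called lower in hMYC-2 was *rag1*, a recombinase gene of immature lymphocytes that is also among the T cell markers. It read 4.64 to 6.25 on hMYC-2 arrays, 6.22 to 8.07 on hMYC-1 arrays and 5.50, 11.16 and 10.53 on hlk arrays. The groups overlapped through hlk replicate 1, and the difference was −3.80 in hMYC-2 (SE 0.97, adjusted p = 0.0124) and −1.82 in hMYC-1 (SE 1.05, adjusted p = 0.276). Without hlk replicate 1 the gene was called in hMYC-1 too (−3.60, adjusted p = 0.000509), and the call in hMYC-2 was lost without hlk replicate 2 (−2.75, adjusted p = 0.0682) or 3 (−3.06, adjusted p = 0.0633), where the difference in hMYC-1 was −0.77 and −1.08.

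Of 12 TOR branch genes measured, 6 were called higher and 1 lower in hMYC-2 against hlk (58.3%, beside 27.6% of all genes). In hMYC-1 against hlk, 5 were called higher and 1 lower (50%, beside 20.9%). The medians were 0.26 and 0.54 beside −0.08 and −0.03 over all genes. Among the higher genes, *deptor* and *ddit4* inhibit the TOR kinase in mammals, and *eif4ebp1* and *eif4ebp3l* encode repressors of translation that TOR inactivates. The level of *deptor* was 6.93 to 8.03 on hMYC-2 arrays, 7.21 to 7.70 on hMYC-1 arrays and 3.62 to 4.31, within background, on hlk arrays. It was at least 3.53-fold higher in hMYC-2 (adjusted p = 4.85e-07) and at least 3.31-fold higher in hMYC-1 (adjusted p = 1.67e-06).

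The stress-induced *ddit4* read 9.05 to 12.02 on hMYC-2 arrays, 8.52 to 11.62 on hMYC-1 arrays and 4.75 to 6.13 on hlk arrays, a difference of 5.44 in hMYC-2 (SE 0.77, adjusted p = 0.000227) and 4.24 in hMYC-1 (SE 0.84, adjusted p = 0.00311). The translation repressor *eif4ebp1* read 10.12 to 10.72 on hMYC-2 arrays, 10.00 to 10.31 on hMYC-1 arrays and 8.47 to 8.96 on hlk arrays, a difference of 1.74 (SE 0.14, adjusted p = 1.32e-06) and 1.50 (SE 0.15, adjusted p = 1.27e-05). Its relative *eif4ebp3l* differed by 2.89 in hMYC-2 (SE 0.29, adjusted p = 1.16e-05) and 3.06 in hMYC-1 (SE 0.31, adjusted p = 1.78e-05). The remaining higher genes, chosen after their values were seen, were the TOR complex subunit *mlst8* (0.54 in hMYC-2, adjusted p = 0.00714, and 0.72 in hMYC-1, adjusted p = 0.00226) and, in hMYC-2, the TOR kinase gene *mtor* (0.48, adjusted p = 0.0426, against 0.52, adjusted p = 0.0522, in hMYC-1). Without hlk replicate 1 *mtor* was called in both (0.75, adjusted p = 0.000155 and 0.79, adjusted p = 0.000191), as it was with housekeeping genes as the scale (0.61, adjusted p = 0.00374 and 0.73, adjusted p = 0.00208). The call of *mtor* in hMYC-2 was lost without hlk replicate 2 (0.29, adjusted p = 0.204) or 3 (0.39, adjusted p = 0.144), without any 1 of hMYC-2 replicates 1 to 5 or any 1 hMYC-1 array (adjusted p = 0.052 to 0.0753) and with the replicate block (adjusted p = 0.0964). Without hlk replicate 2 the differences of *mtor* in hMYC-1 and of *mlst8* in hMYC-2 were 0.33 and 0.35, and *mlst8* in hMYC-2 was not called with the block (0.49, adjusted p = 0.0547). The second probe set of *mlst8*, above background on 11 arrays, was also called higher against hlk in the main fit (0.70, adjusted p = 0.0244 in hMYC-2 and 0.99, adjusted p = 0.00659 in hMYC-1). Another repressor, *eif4ebp2*, which was also chosen after its values were seen, was called lower, with differences of −0.74 in hMYC-2 (adjusted p = 0.00026) and −0.46 in hMYC-1 (adjusted p = 0.0135). The call in hMYC-1 was lost with housekeeping genes as the scale (adjusted p = 0.34).

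Phosphatases, which remove the lipids that PI3K makes or act on AKT, had 11 genes measured. Of these, 2 were called lower in hMYC-2 against hlk (18.2%, beside 27.6% of all genes) and 3 in hMYC-1 against hlk (27.3%, beside 20.9%), with medians of −0.21 and −0.13. The inositol lipid phosphatase *inpp4aa* averaged 6.14 ± 0.10 in hMYC-2, 5.85 ± 0.24 in hMYC-1 and 7.21 ± 0.38 in hlk, a difference of −1.06 (SE 0.15, adjusted p = 0.00028) and −1.36 (SE 0.17, adjusted p = 9.01e-05). The myotubularin *mtmr6* differed by −0.48 in hMYC-2 and −0.41 in hMYC-1, and *ppp2cb*, a protein phosphatase subunit, by −0.43 in hMYC-1. Neither gene was called with housekeeping genes as the scale. In hMYC-1 both calls were also lost without hMYC-1 replicate 3 or 4 or hlk replicate 2, and that of *ppp2cb* without hlk replicate 3 (adjusted p = 0.056 to 0.131). The call of *ppp2cb* was lost with the replicate number as a block too (adjusted p = 0.152). The myotubularin *mtmr8* missed the threshold (0.58, adjusted p = 0.0576 in hMYC-2 and 0.66, adjusted p = 0.0562 in hMYC-1), and was called higher in hMYC-1 with housekeeping genes as the scale (adjusted p = 0.0483). Without hlk replicate 2 it was called in both groups (0.84, adjusted p = 0.00841 and 0.92, adjusted p = 0.00819), without hMYC-1 replicate 3 in hMYC-1 (0.77, adjusted p = 0.0374) and without hMYC-2 replicate 1 in hMYC-2 (0.63, adjusted p = 0.0473), and without hlk replicate 1 the difference in hMYC-2 was 0.38 (adjusted p = 0.246).

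**Figure D3:**
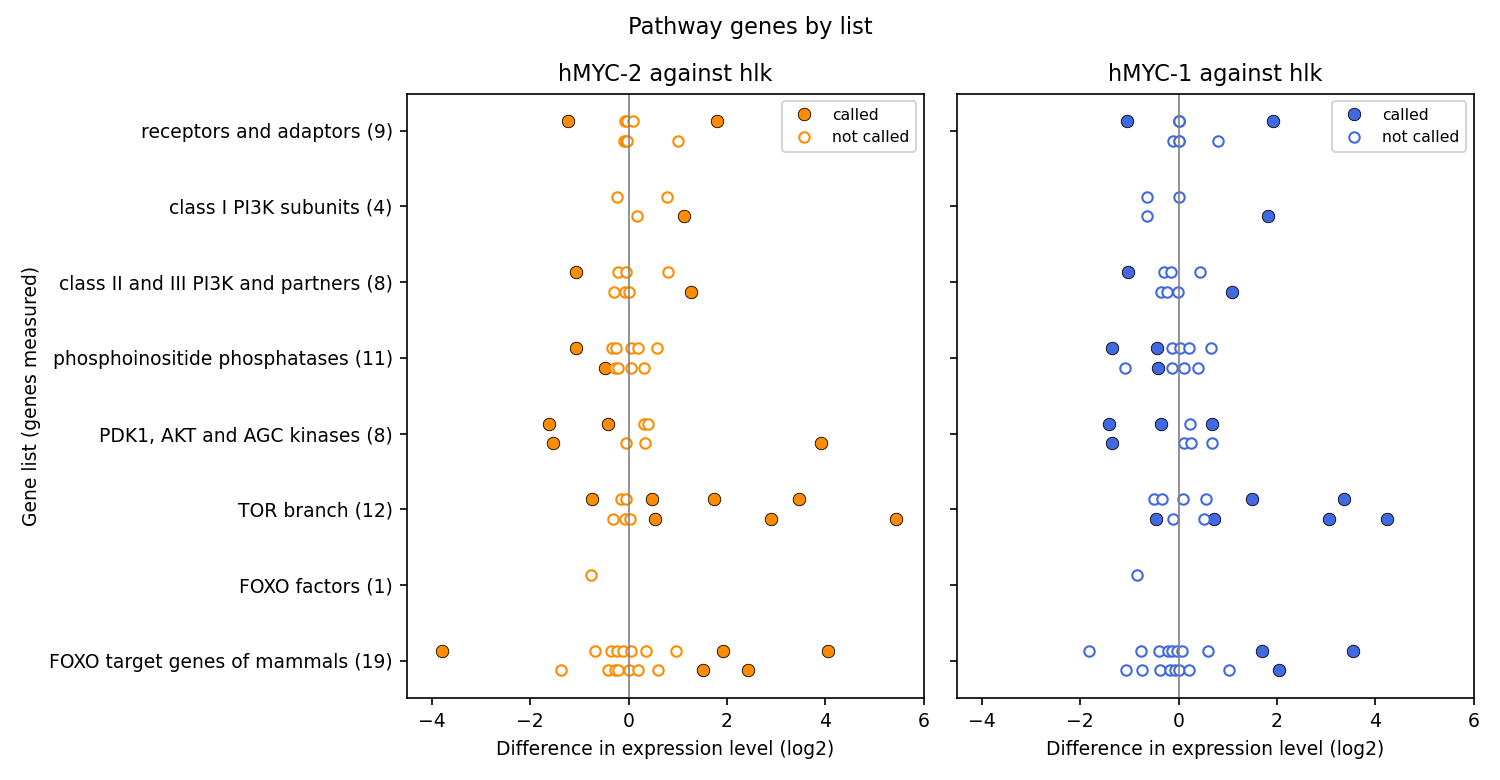
Differences in log2 expression level for the 72 pathway genes measured, hMYC-2 against hlk (left) and hMYC-1 against hlk (right), by list, with the number of genes measured in parentheses. Filled points were called at an adjusted p under 0.05 and open points were not. Filled points to the right of 0 are most numerous in the TOR branch, with 6 and 5 genes.

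Over the 72 pathway genes, 23 (31.9%) were called in hMYC-2 against hlk, 14 higher and 9 lower, and 21 (29.2%) in hMYC-1 against hlk, 12 higher and 9 lower, beside the 27.6% and 20.9% of all genes given above. With arrays set to their housekeeping genes, the split was 14 higher and 7 lower in hMYC-2 and 15 higher and 5 lower in hMYC-1. Higher calls were then 66.7% of the pathway calls in hMYC-2 and 75% in hMYC-1, near the 67.1% and 76.5% among all genes. That scale moved the median of all genes by 0.13 in hMYC-2 and 0.21 in hMYC-1 against hlk, with hlk replicate 1 shifted by 0.43, and left each of the 6 genes on the same side of hlk. From these arrays the study reported, without showing the data, a PI3K pathway of B lymphocytes as enriched and activated in hMYC-2 but not hMYC-1, relative to hlk. It ran a pathway tool on its own called genes, so the counts here do not test that result.

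Between hMYC-2 and hMYC-1, limma called none of the 6 genes, and 0.671% of all genes (0.546% higher and 0.125% lower). At an unadjusted p under 0.05, 3 of the 6 passed, as did 12.7% of all genes, and by a shrinkage t test 0 of the 6 did. The difference of *foxo3b* was 1.11 (SE 0.29, 95% interval 0.48 to 1.73, adjusted p = 0.144), and its arrays overlapped only through hMYC-2 replicate 1 at 7.98 and hMYC-1 replicate 4 at 8.06. For *irs2a* it was 0.82 (SE 0.27, interval 0.23 to 1.41, adjusted p = 0.281). For *pik3c3* it was −0.57 (SE 0.22, interval −1.04 to −0.10, adjusted p = 0.354), and without hMYC-1 replicate 3 it was −0.29. For *pik3r3b*, with every hMYC-1 array within background, the difference as measured was 0.46 (interval −0.06 to 0.98, adjusted p = 0.498). Those of *pdpk1a* and *pik3c2b* were 0.08 (adjusted p = 0.908) and −0.02 (interval −0.52 to 0.47, adjusted p = 0.984). The arrays of the 2 groups overlapped or met for 6 of 6 genes, as they did for most genes, since they were apart for only 4.16% of all genes.

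**Figure D4:**
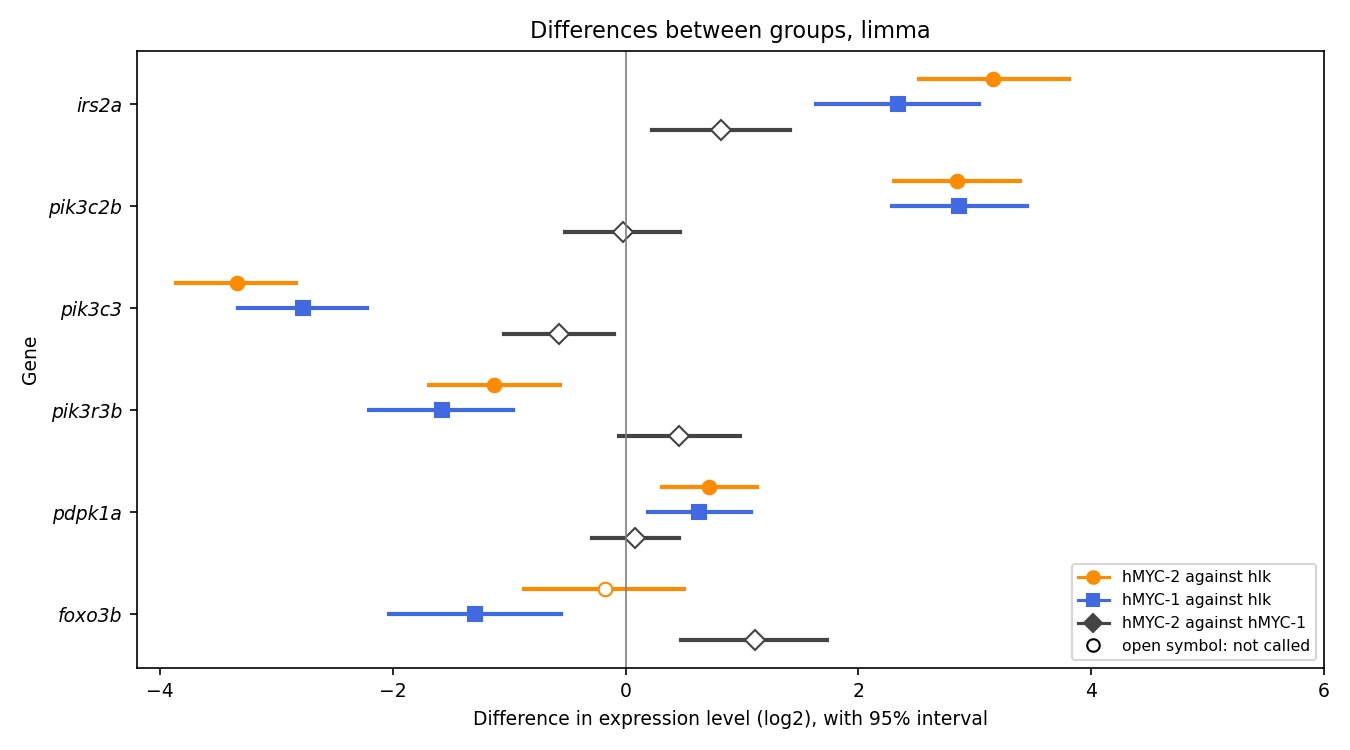
Difference in log2 expression level for the 6 genes in each of the 3 comparisons, with 95% intervals from limma. Filled symbols were called at an adjusted p under 0.05 and open symbols were not. All symbols for hMYC-2 against hMYC-1 are open, and *foxo3b* is the gene that is filled in hMYC-1 against hlk and open in hMYC-2 against hlk.

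Each of the 6 genes was also set beside the other 8792 genes by the root mean square difference over the 13 arrays, after each gene was centred on its own mean. The genes nearest to *irs2a* were *cxcr4b* (0.34), *lmo4b* (0.42) and *jam3b* (0.45), where the SD of *irs2a* itself was 1.36. Those nearest to *pik3c2b* were *pxna* (0.27), zgc:92140 (0.33) and *prnprs3* (0.34), against its SD of 1.30. For *pik3c3* they were *tpst1l* (0.24), si:dkey-42i9.4 (0.28) and *myo9b* (0.33), against an SD of 1.43. These 3 patterns are mainly the step between *hMYC* and hlk arrays, which many genes share. The nearest to *foxo3b*, whose low group was hMYC-1, were *eef2a.1* (0.38), *mcl1a* (0.40) and *sat1a.1* (0.44), against an SD of 0.72. For *pik3r3b* they were *pkma* (0.23), *gmds* (0.30) and zgc:158270 (0.30), against an SD of 0.71, and for *pdpk1a* si:zfos-464b6.2 (0.20), *cadm4* (0.21) and *utp25* (0.21), against an SD of 0.40.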

How the data were processed

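RNA of GFP+ leukemia cells from 13 adult zebrafish, 1 fish per array by the study's counts, was hybridised to Affymetrix Zebrafish Genome Arrays. The authors ran justRMA on all arrays together and deposited its log2 values. Scanner files and dates were not used here, so batches could not be tested and the authors' background correction, normalization and probe summary were not repeated. The number of arrays limits the precision.

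After removal of 115 controls, 15502 probe sets were tested. Symbols came from the array annotation, and 10795 probe sets had 1 symbol, of which 10711 matched through a gene ID and 1 changed. No gene was named from the 135 with several symbols or the 4572 with none. Of the 8793 genes, 1539 had more than 1 probe set and were read from the one with the highest mean over 13 arrays. Groups were compared with limma (version 3.58.1, R 4.3.3) in 1 fit with 3 group means and Benjamini-Hochberg adjustment over 15502 probe sets.

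The 6 genes, the pathway and marker lists and the tests were chosen with earlier results of these data known. The text names the 6 genes with every probe set, up to 4 genes of each pathway list with the smallest adjusted p against hlk, any pathway gene called between hMYC-2 and hMYC-1, paralogs, and the 3 genes nearest to each of the 6. Genes outside this rule are marked as chosen after their values were seen.

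Arrays with the same number were compared by how far each gene lay from its group mean, and these distances correlated at 0.32, 0.23 and 0.24 for hMYC-2 with hlk, at −0.15, 0.10 and −0.13 for hMYC-1 with hlk and at −0.32, 0.17, −0.16 and −0.05 for hMYC-2 with hMYC-1. Correlations were thus positive at every shared number for hMYC-2 with hlk only, and their cause was not tested. The labels do not say what a number marks, and the main fit did not use it. As an alternative, the replicate block was applied to every comparison, including those with hMYC-1, where the correlations were mixed in sign. A replicate block in the fit, a shrinkage t test with local false discovery rate written from its published formulas, a trended robust prior, 2 groups fitted alone, a filter for over 5.68 on 3 arrays, further quantile normalization, scaling to *actb1*, *eef1a1l1* and *gapdh*, and leaving out each array were the alternatives. The result on 1 gene is not reported here.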

Additional observations from a re-analysis of the deposited data

Results flagged for a closer look

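On hMYC-2 replicate 6 the class I regulatory subunit *pik3r3b* stood at 5.08, far from the other 5 hMYC-2 arrays at 5.86 to 6.20. The gap to the nearest array was 0.696 of the whole range of the group. Of 12 groups of 4 or 6 arrays examined for the 6 genes, this was the 1 with such a sample. Chance flags about 1 in 20 of such groups, so 1 flag among 12 can arise by chance. The level of 5.08 is within background.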

How the results depend on the processing

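Directions of the 6 genes against hlk held under every alternative run, except for the uncalled *foxo3b* in hMYC-2, which was 0.24 without hlk replicate 2. All calls of *irs2a*, *pik3c2b* and *pik3c3* against hlk held under every alternative. The shrinkage t test called 1127 probe sets in hMYC-1 against hlk (2909 by limma) and 867 in hMYC-2 against hlk (3822 by limma), with 11 pathway genes (21 by limma) and 12 (23 by limma), and 3 of the 6 genes in hMYC-2 (5 by limma). It did not call *pik3r3b* (−1.12) or *pdpk1a* (0.72) in hMYC-2, or *foxo3b* (−1.29) or *pdpk1a* (0.63) in hMYC-1. With 2 groups alone, 1879 probe sets were called in hMYC-1 against hlk and neither *pdpk1a* (0.63) nor *foxo3b* (−1.29) was. In hMYC-1, *pdpk1a* was also lost with quantile normalization (0.59) and housekeeping scaling (0.84), and *foxo3b* with housekeeping scaling (−1.08), where higher calls were 76.5% of all calls among genes (50.5% otherwise) and 67.1% in hMYC-2 (45% otherwise). Under the replicate block 2395 probe sets were called in hMYC-2 against hlk and all calls of the 6 genes held. For hMYC-2 against hMYC-1, where 83 probe sets and 1 pathway gene, *sgk1* by the probe set of highest mean, were called, the block left 25 and 0 and housekeeping scaling left 55, and the filter on dim probe sets gave 2 pathway genes. Leaving out 1 array gave 40 to 99 probe sets there (40 without hMYC-1 replicate 3, 49 and 51 without hMYC-2 replicates 2 and 3) and 1 to 2 pathway genes, 0.53 to 0.80 for *pdpk1a* and −1.52 to −0.87 for *foxo3b* in hMYC-1 against hlk, and 0.63 to 0.89 for *pdpk1a* in hMYC-2 against hlk. The cause of these changes was not tested. Signal near background limits *pdpk1a*, *pik3r3b* and the receptor genes other than *insra*.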

Other observations

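Markers of other cells were mostly within background. Mean levels over all arrays ran from 3.82 to 4.63 for 7 erythroid, 4.93 to 5.41 for 7 neutrophil, 3.00 to 3.30 for 4 thrombocyte, 4.69 to 5.79 for 7 muscle, 3.85 to 5.02 for 4 skin, 3.69 to 4.56 for 7 hepatocyte and intestine, 3.91 to 4.97 for 4 exocrine pancreas, 4.27 to 4.97 for 3 ovary and 3.95 to 4.26 for 4 endothelium and fibroblast markers, and from 3.11 to 3.72 for the 1 NK marker. The 6 macrophage markers averaged 6.10 and 6.62 on hMYC-1 replicates 3 and 4, against 5.37 to 5.98 on the other arrays.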
